A study of Macaca mulatta with 9 samples.

Results

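The translation initiation factor genes are the transcripts of the proteins that bring a ribosome to the start codon of a messenger RNA. They were taken as every gene of the deposited table whose symbol begins with EIF and a digit of the factor families 1 to 6, leaving out the 4 EIF2AK genes, which encode the kinases that phosphorylate EIF2. This gave 47 of 24371 genes, and all 47 symbols are in the table of gene names. EIF3C, a core EIF3 subunit, and EIF4E1B, a relative of EIF4E, have no row under those symbols in the table and so were not analysed.

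Initiation begins when EIF2, bound to GTP and the initiator transfer RNA, joins the small ribosomal subunit together with EIF1, EIF1A, EIF3 and EIF5. EIF4E binds the cap of the messenger RNA, and EIF4G holds EIF4E, the helicase EIF4A and, through EIF3, the ribosome on one scaffold. EIF4E-binding proteins compete with EIF4G for EIF4E when signalling through mTOR is low, and phosphorylation of EIF2 slows its recharging by the exchange factor EIF2B. In red cell precursors the EIF2 kinase EIF2AK1 couples globin synthesis to the supply of heme, and circulating blood also carries the initiation factor transcripts of white cells and platelets.

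RNA was measured by sequencing in whole blood of 9 wild-type rhesus macaques (Macaca mulatta), with 3 animals in each of 3 groups. Animals assigned at random received Evs-ABPC, extracellular vesicles that the series title ties to antler blastema progenitor cells, or Evs-FBMSC, named in the labels only by that abbreviation, or PBS, the vehicle. The labels give the PBS animals the descriptor Old, and give no dose, duration or age for any group. No animal gave more than 1 library, so replicates here are animals.

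Globin transcripts took most of each library, and their share differed between the groups. Globins made up 76.2% ± 5.82 of the listed total in Evs-ABPC libraries, 84.2% ± 3.01 in Evs-FBMSC libraries and 89.7% ± 2.57 in PBS libraries (SD, n = 3 each). The deposited value of a gene is a per-million share of a fixed total, so the share left for all other transcripts together is larger where globins take less. The results are therefore given on 2 scales, as deposited ("listed value") and after each library was divided by its median ratio to the mean profile ("scaled value"). Reads recovered from the values, which leave out most globin reads, ran from 5148967 to 6364973 in Evs-ABPC, from 3946932 to 4655463 in Evs-FBMSC and from 1859617 to 2937127 in PBS libraries. On the initiation factor genes fell 40041 to 50006 reads in Evs-ABPC, 29350 to 34028 in Evs-FBMSC and 13039 to 24239 in PBS libraries, so the PBS values are the least precise.

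Globin and all white cell and platelet lists were detected, as the label whole blood implies, and the scaled sums of the white cell and platelet markers overlapped between the groups. The T cell list (14 of 16 genes in the table) ran from 163 to 382 in Evs-ABPC, from 115 to 253 in Evs-FBMSC and from 145 to 209 in PBS libraries. The cytotoxic and NK list (10 of 10) ran from 236 to 440 in Evs-ABPC, from 265 to 654 in Evs-FBMSC and from 133 to 412 in PBS libraries, and the B cell list (9 of 9) from 90.1 to 267 in Evs-ABPC, from 85.7 to 234 in Evs-FBMSC and from 189 to 374 in PBS libraries. The neutrophil list (13 of 14) ran from 671 to 2047 in Evs-ABPC, from 1039 to 4615 in Evs-FBMSC and from 990 to 3211 in PBS libraries. The monocyte list (7 of 9) ran from 313 to 353 in Evs-ABPC, from 309 to 972 in Evs-FBMSC and from 282 to 449 in PBS libraries, and the platelet list (8 of 9) from 62.3 to 423 in Evs-ABPC, from 112 to 252 in Evs-FBMSC and from 180 to 219 in PBS libraries. The erythroid and globin list (41 of 48) was the exception, with scaled sums from 300607 to 545421 in Evs-ABPC, from 689195 to 919961 in Evs-FBMSC and from 1157500 to 2820140 in PBS libraries. No marker in the table was at 0 in every library, and the part of these cell types in the results below was not tested.

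Of the 47 genes, 45 had a listed value of at least 1 in 3 or more libraries and were tested. EIF5A2, the paralog of EIF5A, had per-million values between 0 and 0.785, on 0 to 14 reads a library. EIF1AY, the Y-linked form of EIF1A, was listed at 0 in 8 of 9 libraries and at 0.162 in Evs-ABPC replicate 2. At the other end, 37 genes reached 1 in all 9 libraries. EIF2B2 and EIF2B3 passed although no PBS library reached 1, as did 1961 genes of the whole table.

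The order of levels was led by EIF1, which keeps the scanning ribosome open until the start codon is found. Its scaled values were 109, 124 and 90.8 in Evs-ABPC libraries, 149, 107 and 112 in Evs-FBMSC libraries and 183, 208 and 142 in PBS libraries, so the Evs-ABPC and PBS libraries did not overlap. EIF1 alone supplied 15.1% ± 1.72 of the summed initiation factor value in Evs-ABPC, 16.3% ± 2.50 in Evs-FBMSC and 20.3% ± 2.53 in PBS libraries (SD, n = 3 each). EIF4G2, a scaffold that lacks the EIF4E-binding site of its relatives, came second with scaled values of 57.4, 68.2 and 60.5 in Evs-ABPC, 73.6, 58.6 and 67.3 in Evs-FBMSC and 72.9, 59.4 and 66.1 in PBS libraries. The 3 groups shared one range for it.

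The next 4 places went to EIF3 subunits. EIF3K had scaled values of 43.0, 63.0 and 40.2 in Evs-ABPC, 42.9, 44.7 and 52.7 in Evs-FBMSC and 47.7, 89.3 and 60.4 in PBS libraries, the highest being PBS replicate 2. EIF3F had 32.2, 41.5 and 35.5 in Evs-ABPC, 30.7, 35.0 and 33.0 in Evs-FBMSC and 34.6, 45.4 and 43.6 in PBS libraries. For both genes the groups overlapped. EIF3L had 30.9, 29.5 and 26.1 in Evs-ABPC, 34.0, 32.0 and 26.5 in Evs-FBMSC and 28.2, 40.1 and 32.8 in PBS libraries. EIF3D, a subunit that can itself bind the cap of some messages, had 27.8, 32.4 and 27.8 in Evs-ABPC, 27.3, 29.5 and 29.6 in Evs-FBMSC and 24.7, 35.4 and 29.99 in PBS libraries, with all 9 libraries interleaved. The order among EIF3F, EIF3L and EIF3D was within the spread of their libraries. Their values are per transcript length, so levels of different genes can be set side by side.

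**Figure D1:**
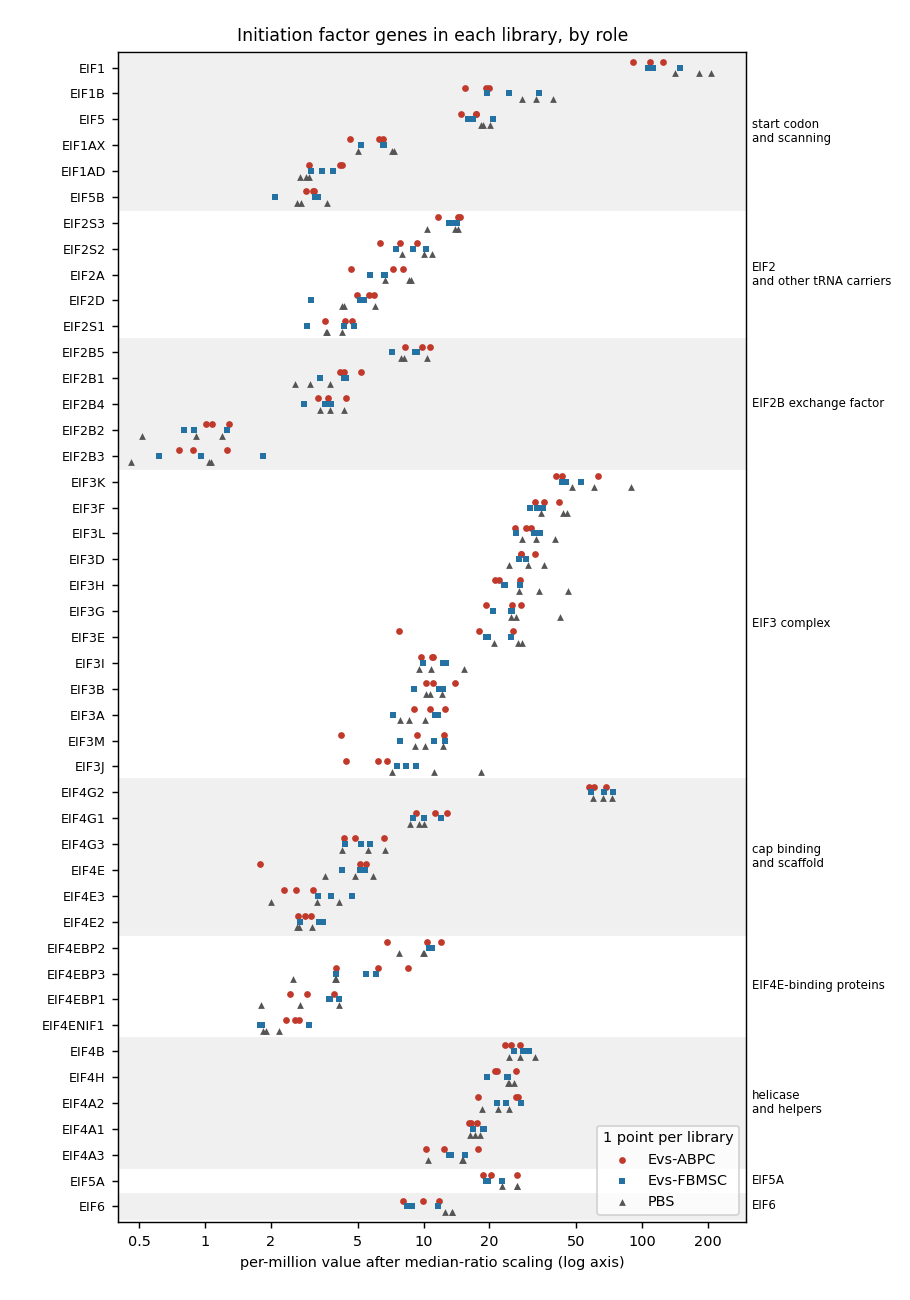
Scaled per-million value (after median-ratio scaling, log axis) of the 45 tested initiation factor genes, 1 point for each of the 9 libraries, in bands by role. EIF1 lies highest, EIF2B2 and EIF2B3 lie lowest around 1, and Evs-ABPC replicate 2 lies apart on the low side for EIF3E, EIF3M and EIF4E.

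The first comparison asked how blood after Evs-ABPC differed from blood after PBS. On the deposited scale all 45 tested initiation factor genes rose (limma with a trend, adjusted p from 0.000417 to 0.0200), against a background in which 90.9% of the 10596 genes tested rose and 0.0566% fell. Before adjustment 91.2% of all genes were higher at p under 0.05, and 98.9% had a positive log2 fold change, so the 45 calls follow the whole table. For 44 of the 45 every Evs-ABPC library lay above every PBS library, where 85.4% of all genes did, and EIF3E, a core EIF3 subunit, was the exception. The median log2 fold change was 1.70 over the initiation factor genes and 1.41 over all genes. That lead vanished with a smaller pseudocount of 0.1, where both medians were 1.95. In bulk blood, fewer cells of a type and less RNA per cell cannot be told apart.

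The size of the deposited differences ran from 0.92 to 2.25. EIF4EBP3, an EIF4E-binding protein, was highest with per-million values of 6.03, 18.4 and 15.5 in Evs-ABPC libraries against 0.834, 1.84 and 3.03 in PBS libraries, on 12 to 36 reads in the PBS libraries. Its log2 fold change was 2.25 (SE 0.40, limma adjusted p = 0.000417). EIF3J, a loosely attached EIF3 subunit, was lowest with per-million values of 10.3, 9.53 and 15.6 in Evs-ABPC libraries against 6.08, 5.25 and 5.51 in PBS libraries, a log2 fold change of 0.92 (SE 0.36, limma adjusted p = 0.0200). Its lowest Evs-ABPC library still lay above its highest PBS library.

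A few of these 45 calls rested on single libraries. EIF3J was not called without Evs-ABPC replicate 3 (limma adjusted p = 0.117), without PBS replicate 2 (0.0750) or with only the 2 groups in the fit (0.0541). EIF3E was not called without Evs-ABPC replicate 3 (limma adjusted p = 0.0770) or without PBS replicate 1 (0.0905), and EIF1B, the close paralog of EIF1, was not called without PBS replicate 2 (0.0749).

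Summed over all 47 genes, the initiation factors had a per-million value of 1473 ± 347 in Evs-ABPC, 784 ± 81.4 in Evs-FBMSC and 451 ± 174 in PBS libraries (SD, n = 3 each). Set against the RNA outside the erythroid and globin genes alone, the same sum was 0.636% ± 0.0722 in Evs-ABPC, 0.522% ± 0.0757 in Evs-FBMSC and 0.456% ± 0.0872 in PBS libraries. On that base every Evs-ABPC library (0.565% to 0.709%) lay above every PBS library (0.406% to 0.557%). With the same genes taken out, the median log2 fold change over all genes was 0.73 in Evs-ABPC against PBS. The median over the initiation factor genes was slightly lower, so this gap is not particular to them. The gap between the nearest libraries of the 2 groups was small beside the spread within each. Relative to the sum of 81 cytosolic ribosomal protein genes, the initiation factors stood at 10.51% ± 2.62 in Evs-ABPC, 9.02% ± 0.998 in Evs-FBMSC and 7.58% ± 0.919 in PBS libraries, and the Evs-ABPC range (7.89% to 13.1%) overlapped the PBS range (6.62% to 8.45%).

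After median-ratio scaling no initiation factor gene passed the threshold between Evs-ABPC and PBS by limma, nor did any of the 10596 genes (0% higher, 0% lower). At an unadjusted p under 0.05, 2 initiation factor genes were higher and 4 lower, against 326 higher (3.08%) and 754 lower (7.12%) of all genes. Limma-voom on the recovered reads called 0 initiation factor genes, and 0 genes higher and 1 lower of all genes. At an unadjusted p under 0.05 limma-voom gave 1 initiation factor gene higher and 4 lower. Its share of all genes at that p is not given here, so these counts stand without a background. The median log2 fold change was -0.05 over the initiation factor genes, beside 0.00 over all genes. Groups did not overlap for 4 genes on the high side and 5 on the low side, where 6.45% and 7.51% of all genes did so.

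**Figure D2:**
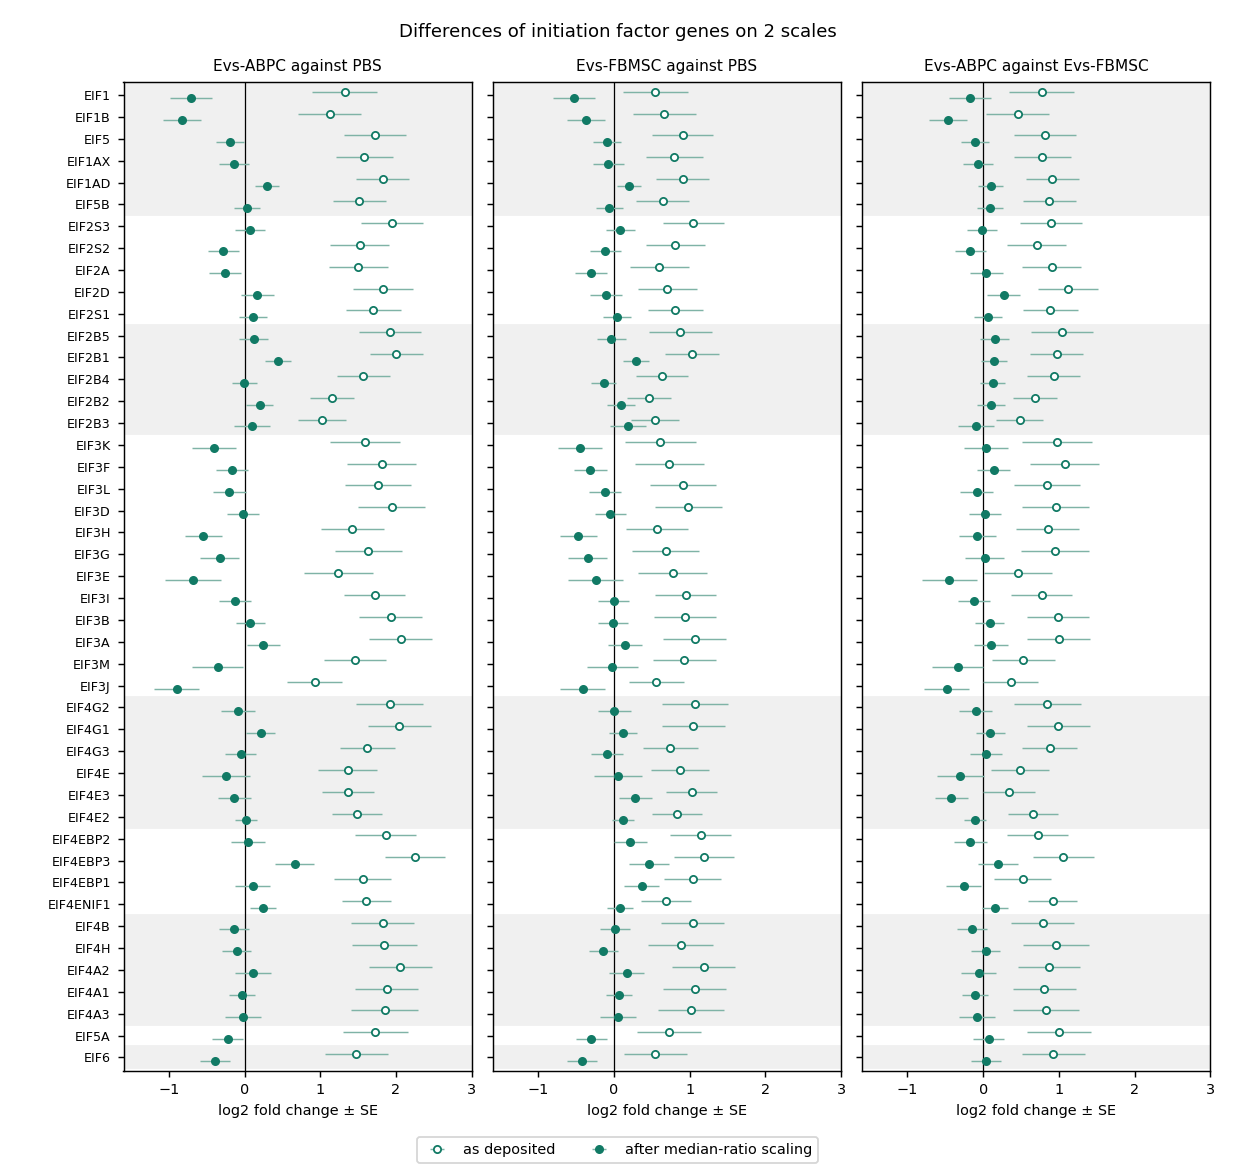
Log2 fold change ± SE of the 45 tested initiation factor genes in the 3 comparisons, with open points as deposited and filled points after median-ratio scaling, in bands by role. As deposited all points lie above 0 and 45 are called in Evs-ABPC against PBS, while the scaled points lie around 0 and none is called.

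The start codon and scanning factors held the lowest scaled fold changes of this comparison beside EIF3J. EIF1B had scaled values of 20.001, 19.2 and 15.4 in Evs-ABPC, 33.8, 19.5 and 24.7 in Evs-FBMSC and 39.1, 28.1 and 32.7 in PBS libraries. Every Evs-ABPC library lay below every PBS library, at a log2 fold change of -0.83 (SE 0.25, unadjusted p = 0.00829, limma adjusted p = 0.270). EIF1, whose values stand above, had -0.70 (SE 0.27, unadjusted p = 0.0290, limma adjusted p = 0.413). How the authors' counting split reads between EIF1 and EIF1B, which are close in sequence, is not given in the sources used here, so their separate values are uncertain. The ratio of EIF1 to EIF1B within a library averaged, on the log2 scale, 2.53 ± 0.13 in Evs-ABPC, 2.22 ± 0.16 in Evs-FBMSC and 2.34 ± 0.40 in PBS libraries (SD, n = 3 each).

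The other scanning factors stayed closer to 0. EIF1AD, a protein with an EIF1A-like domain, had scaled values of 2.997, 4.21 and 4.13 in Evs-ABPC, 3.85, 3.05 and 3.44 in Evs-FBMSC and 2.99, 2.72 and 2.89 in PBS libraries, a difference of 0.30 (SE 0.16, limma adjusted p = 0.584) between Evs-ABPC and PBS. Here the Evs-ABPC and PBS groups were apart by a narrow margin. EIF5, which triggers GTP hydrolysis by EIF2, had a log2 fold change of -0.20. Its scaled values ran from 14.9 to 17.3 in Evs-ABPC and from 18.3 to 20.1 in PBS libraries, so these groups were also apart. EIF5B, which joins the ribosomal subunits, had a log2 fold change of 0.03. EIF1AX, the partner of EIF1 in scanning, had 6.54, 4.61 and 6.23 in Evs-ABPC, 5.18, 6.58 and 6.54 in Evs-FBMSC and 7.17, 5.02 and 7.35 in PBS libraries. Of the 6 tested members of the start codon and scanning group, 2 lay above the median of all genes and 4 below it.

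The EIF2 subunits and the other carriers of initiator transfer RNA stayed between -0.28 and 0.17 on the scaled scale, with 3 of 5 above the median of all genes. EIF2D, which works on ribosomes that restart after termination, had 4.94, 5.65 and 5.92 in Evs-ABPC, 3.04, 5.33 and 5.09 in Evs-FBMSC and 4.32, 4.21 and 5.96 in PBS libraries, so all groups overlapped. The exchange factor EIF2B, which recharges EIF2 with GTP, had 4 of 5 subunits above the median of all genes. EIF2B1, its alpha subunit, had scaled values of 4.14, 4.31 and 5.15 in Evs-ABPC, 3.36, 4.32 and 4.42 in Evs-FBMSC and 3.73, 2.58 and 3.004 in PBS libraries. The Evs-ABPC libraries all lay above the PBS libraries at 0.44 (SE 0.17, unadjusted p = 0.0306, limma adjusted p = 0.418). EIF2B5, the catalytic subunit, had 8.18, 10.7 and 9.84 in Evs-ABPC, 7.17, 9.29 and 9.17 in Evs-FBMSC and 8.11, 7.84 and 10.4 in PBS libraries, with overlap throughout. The beta and gamma subunits EIF2B2 and EIF2B3 lay near 1 and rested on 14 to 62 and 6 to 26 reads in the PBS libraries. Both passed the filter with 3 Evs-ABPC libraries and 0 PBS libraries at 1 or more. The filter thus favoured a higher value in Evs-ABPC for them, and the count of 4 of 5 is no support for a difference.

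EIF3, the large complex that binds the small ribosomal subunit, had 2 of 12 subunits above and 10 below the median of all genes in Evs-ABPC against PBS. Under the other 2 scalings tried 9 lay below it, and none of the 12 was called. The median of the 12 was -0.27. EIF3J had scaled values of 6.77, 4.40 and 6.18 in Evs-ABPC, 9.27, 7.59 and 8.30 in Evs-FBMSC and 18.4, 11.2 and 7.19 in PBS libraries. The Evs-ABPC libraries were the lowest 3 of the 9, and the PBS libraries spread widely. Its log2 fold change was -0.89 (SE 0.30, unadjusted p = 0.0137, limma adjusted p = 0.320).

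EIF3E had scaled values of 25.6, 7.74 and 17.9 in Evs-ABPC, 19.8, 19.3 and 25.1 in Evs-FBMSC and 21.1, 28.2 and 27.2 in PBS libraries. A single library, Evs-ABPC replicate 2, was far below the rest, and the log2 fold change of -0.68 (SE 0.37, limma adjusted p = 0.580) had a range of -1.03 to -0.23 as libraries were left out. EIF3H, another core subunit, had 27.6, 22.1 and 21.3 in Evs-ABPC, 27.8, 23.3 and 23.7 in Evs-FBMSC and 33.7, 45.9 and 27.2 in PBS libraries, at -0.55 (SE 0.24, unadjusted p = 0.0473, limma adjusted p = 0.483). Its Evs-ABPC and PBS ranges met between 27.2 and 27.6. EIF3A, the largest subunit and a scaffold of the complex, went the other way with 10.7, 8.99 and 12.5 in Evs-ABPC, 7.27, 11.3 and 11.6 in Evs-FBMSC and 8.58, 7.83 and 10.2 in PBS libraries, a difference of 0.25 (SE 0.22, limma adjusted p = 0.747) with overlapping groups.

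The subunits of EIF3 differed in level within every library. Relative to the median subunit of the same library, EIF3K stood at 1.91 to 3.50 and EIF3F at 1.36 to 2.31, whereas EIF3A stood at 0.246 to 0.638 and EIF3M, a core subunit, at 0.232 to 0.561. EIF3J held 0.301, 0.245 and 0.316 of the median subunit in Evs-ABPC, 0.412, 0.356 and 0.372 in Evs-FBMSC and 0.805, 0.351 and 0.275 in PBS libraries. PBS replicate 1 stood apart above the other 8 libraries. EIF3E lay between 0.881 and 1.14 in 8 libraries and was 0.431 in Evs-ABPC replicate 2.

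**Figure D3:**
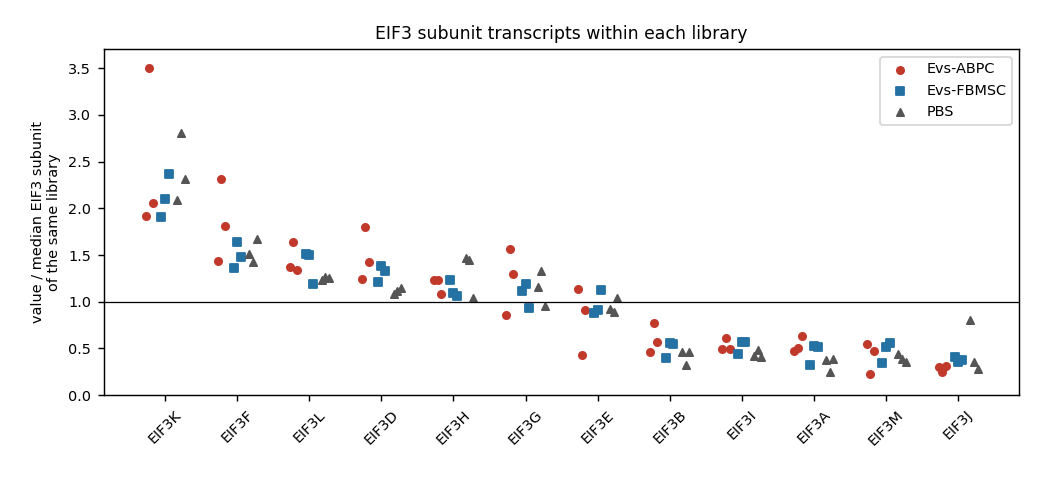
Value of each EIF3 subunit divided by the median EIF3 subunit of the same library, 1 point per library, with subunits ordered by their mean. EIF3K and EIF3F lie above 1 and EIF3A, EIF3M and EIF3J below it in all 9 libraries, and the 3 groups overlap for most subunits.

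Cap-binding and scaffold genes lay between -0.25 and 0.21 in Evs-ABPC against PBS after scaling, with 2 of 6 above the median of all genes. EIF4E, the cap-binding protein, had scaled values of 5.42, 1.78 and 5.11 in Evs-ABPC, 5.12, 4.22 and 5.39 in Evs-FBMSC and 5.85, 3.53 and 4.87 in PBS libraries. Evs-ABPC replicate 2 was again the lowest, on 33 reads. All 4 EIF4E-binding genes lay above the median of all genes under every scaling tried, at a median of 0.18, and none was called. EIF4EBP2 had scaled values of 10.4, 6.83 and 12.1 in Evs-ABPC, 11.0, 10.6 and 11.0 in Evs-FBMSC and 10.1, 7.71 and 9.97 in PBS libraries, with Evs-ABPC libraries on both sides of the PBS range. EIF4EBP3 had scaled values of 3.96, 8.51 and 6.17 in Evs-ABPC, 5.44, 3.97 and 6.03 in Evs-FBMSC and 2.53, 3.92 and 3.96 in PBS libraries. Evs-ABPC replicate 1 barely cleared the top of the PBS range while the other two Evs-ABPC libraries lay well above it, at 0.66 (SE 0.26, unadjusted p = 0.0321, limma adjusted p = 0.426). The helicase EIF4A1, its paralog EIF4A2, the exon junction helicase EIF4A3 and the helicase helpers EIF4B and EIF4H stayed between -0.13 and 0.11. EIF5A, which helps ribosomes through difficult peptide bonds and needs the modification hypusine, had scaled values of 18.7, 26.8 and 20.3 in Evs-ABPC, 19.7, 22.9 and 19.2 in Evs-FBMSC and 26.9, 26.9 and 22.9 in PBS libraries, at -0.23 (SE 0.21, limma adjusted p = 0.756). EIF6, which keeps the large ribosomal subunit from joining early, had 8.02, 11.8 and 9.98 in Evs-ABPC, 8.43, 11.7 and 8.89 in Evs-FBMSC and 12.5, 13.5 and 13.5 in PBS libraries. For EIF6 all 6 vesicle libraries lay below all 3 PBS libraries, at -0.39 (SE 0.20, limma adjusted p = 0.560) for Evs-ABPC against PBS.

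The second comparison set Evs-FBMSC against PBS. As deposited, 0 of the 45 initiation factor genes passed the threshold by limma (smallest adjusted p = 0.0909), where 0.255% of all genes were called higher. At an unadjusted p under 0.05, 27 of the 45 were higher, beside 43.6% of all genes. Every Evs-FBMSC library lay above every PBS library for 26 of the 45, beside 50.9% of all genes. All 45 fold changes were positive, as were 97.1% over all genes. The median log2 fold change was 0.87, against 0.70 over all genes. The count of 0 changed with single libraries, as did the count over all genes. Without PBS replicate 3, the PBS library with the most initiation factor reads, 30 of the 45 were called, beside 43.3% of all genes, and without Evs-ABPC replicate 2, 1 of the 45, beside 6.95%.

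After scaling, 0 initiation factor genes were called in Evs-FBMSC against PBS by limma or by limma-voom, and 0% of all genes were called. None had an unadjusted p under 0.05 by either tool, where limma gave 2.24% of all genes higher and 2.60% lower. Groups did not overlap for 3 genes on the high side (EIF4EBP2, EIF4EBP3 and EIF1AD, beside 4.96% of all genes) and 3 on the low side (EIF5A, EIF6 and EIF2A, beside 4.71%). The median was -0.02, beside 0.02 over all genes. The 4 highest were EIF4EBP3 at 0.46 (SE 0.26), EIF4EBP1 at 0.37 (SE 0.23), EIF2B1 at 0.30 (SE 0.17) and EIF4E3 at 0.28 (SE 0.22), all with a limma adjusted p of 0.998. EIF4EBP1, the best studied mTOR target among the EIF4E-binding proteins, had scaled values of 2.44, 3.87 and 2.94 in Evs-ABPC, 3.75, 4.08 and 3.68 in Evs-FBMSC and 2.71, 1.80 and 4.09 in PBS libraries, so PBS spanned the whole Evs-FBMSC range. EIF4E3, a cap-binding relative of EIF4E, had 2.29, 2.60 and 3.12 in Evs-ABPC, 4.70, 3.29 and 3.78 in Evs-FBMSC and 3.25, 4.09 and 1.998 in PBS libraries. It was the one cap-binding gene whose Evs-ABPC libraries all lay below the Evs-FBMSC libraries.

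The 4 lowest in Evs-FBMSC against PBS were EIF1 at -0.53 (SE 0.27), EIF3H at -0.47 (SE 0.24), EIF3K at -0.44 (SE 0.29) and EIF6 at -0.42 (SE 0.20), all with a limma adjusted p of 0.998. Of these only EIF6 had groups that did not overlap. By role, 1 of 12 EIF3 subunits lay above the median of all genes and 11 below it, and 4 of 4 EIF4E-binding genes lay above it. Both comparisons with PBS share the 3 PBS libraries, so these counts are not independent of the ones for Evs-ABPC.

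The third comparison set Evs-ABPC against Evs-FBMSC. As deposited, 0 of the 45 genes passed the threshold by limma (smallest adjusted p = 0.0737), where 0.585% of all genes were called higher. At an unadjusted p under 0.05, 25 of the 45 were higher, beside 48.0% of all genes, and 34 had no overlap between the groups, beside 50.5% of all genes. All 45 fold changes were positive, as were 95.1% over all genes. The median was 0.87, against 0.71 over all genes. Without Evs-ABPC replicate 1, the Evs-ABPC library with the highest globin share, 22 of the 45 genes were called, beside 45.6% of all genes. Without PBS replicate 3, 9 of the 45 were called, beside 25.6% of all genes.

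After scaling, 0 genes were called in Evs-ABPC against Evs-FBMSC by limma or limma-voom, and 0% of all genes were called. None had an unadjusted p under 0.05 by either tool, where limma gave 1.39% of all genes higher and 3.97% lower. Groups did not overlap for 0 genes on the high side (beside 4.23% of all genes) and for 2 on the low side, EIF3J and EIF4E3 (beside 6.80%). The median was -0.01, beside -0.02 over all genes. The highest were EIF2D at 0.27 (SE 0.21), EIF4EBP3 at 0.20 (SE 0.26), EIF4ENIF1 at 0.16 (SE 0.17) and EIF2B5 at 0.15 (SE 0.19), and the lowest EIF3J at -0.48 (SE 0.30), EIF1B at -0.46 (SE 0.25), EIF3E at -0.44 (SE 0.37) and EIF4E3 at -0.42 (SE 0.22), with limma adjusted p from 0.934 to 0.941. EIF4ENIF1, which carries EIF4E into the nucleus, had scaled values of 2.56, 2.68 and 2.34 in Evs-ABPC, 2.99, 1.82 and 1.77 in Evs-FBMSC and 1.84, 1.91 and 2.18 in PBS libraries. The EIF3 subunits were split evenly here, 6 above and 6 below the median of all genes. The values for EIF3E and EIF4EBP3 depended on Evs-ABPC replicate 2, without which they were 0.0058 for EIF3E and -0.029 for EIF4EBP3.

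Shares of the summed initiation factor value do not depend on the globin share, since both parts of the ratio come from one library. The start codon and scanning genes supplied 22.5%, 22.8% and 20.005% of the sum in Evs-ABPC, 27.7%, 21.4% and 22.3% in Evs-FBMSC and 30.3%, 27.8% and 25.3% in PBS libraries. All Evs-ABPC libraries lay below all PBS libraries, and Evs-FBMSC replicate 1 lay within the PBS range. The EIF4E-binding genes supplied 2.73%, 2.93% and 3.43% in Evs-ABPC, 2.98%, 2.83% and 3.01% in Evs-FBMSC and 2.04%, 1.61% and 2.47% in PBS libraries. The helicase group supplied 14.4%, 13.8% and 15.02% in Evs-ABPC, 14.1%, 15.001% and 13.9% in Evs-FBMSC and 12.4%, 11.5% and 12.5% in PBS libraries. For both groups all 6 vesicle libraries lay above all 3 PBS libraries. The cap-binding and scaffold genes did the same by a narrow margin. They supplied 11.86%, 12.46% and 12.71% in Evs-ABPC, 13.02%, 11.85% and 12.72% in Evs-FBMSC and 11.74%, 8.80% and 11.32% in PBS libraries. The EIF3 complex supplied 35.9% ± 0.471 in Evs-ABPC, 34.9% ± 2.23 in Evs-FBMSC and 36.3% ± 3.86 in PBS libraries (SD, n = 3 each), with overlapping groups. Shares add up to the whole, so a lower share of EIF1 is matched by higher shares elsewhere, and these shares are given as a description with no test.

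**Figure D4:**
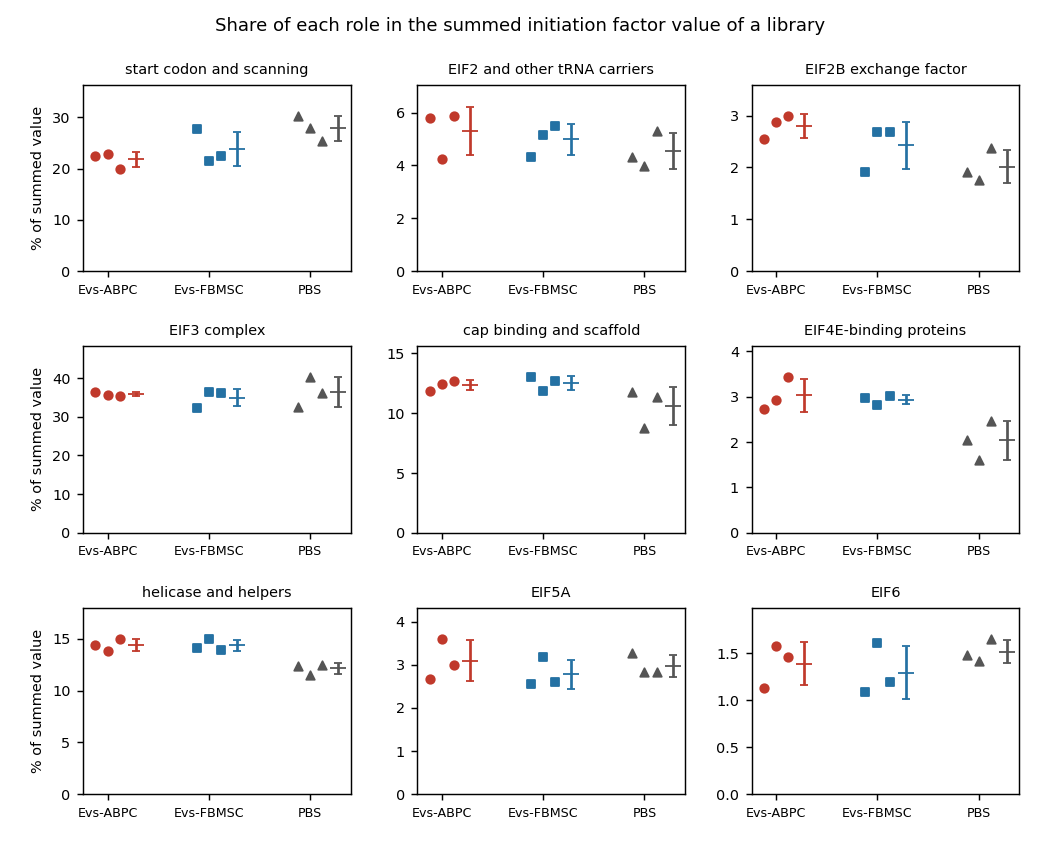
Percent of the summed initiation factor value supplied by each role, 1 point per library with the mean ± SD (n = 3) beside it. Each axis starts at 0, and the start codon and scanning share is lower in all Evs-ABPC than in all PBS libraries. The EIF4E-binding, helicase and, narrowly, cap-binding and scaffold shares are lowest in the PBS libraries.

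Ratios between related factors within a library were compared for 20 pairs, with exact permutation tests over the 3 groups and Benjamini-Hochberg adjustment over the pairs. None of the 20 passed after adjustment. With 3 libraries against 3, the smallest 2-sided p between a pair of groups is 0.1, and over 3 groups it is 0.00357. The log2 ratio of EIF3J to EIF3A was -0.62, -0.96 and -0.97 in Evs-ABPC, 0.31, -0.53 and -0.44 in Evs-FBMSC and 0.89, 0.42 and -0.44 in PBS libraries. All 3 Evs-ABPC ratios were below all the others, and the exact permutation test over 3 groups gave p = 0.0393 (adjusted p = 0.262), or 0.0429 (adjusted p = 0.600 over 18 pairs) with no pseudocount.

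The ratio of EIF4EBP2, the EIF4E-binding gene with the highest level, to EIF4E was 0.86, 1.70 and 1.18 in Evs-ABPC, 0.97, 1.18 and 0.90 in Evs-FBMSC and 0.56, 0.80 and 0.87 in PBS libraries (exact permutation p = 0.107, adjusted p = 0.536). With no pseudocount the exact permutation p was 0.443 (adjusted p = 0.886). The listed value of EIF4E was 1.66 to 3.73 in PBS libraries, so with 1 added this ratio also depends on the listed level. The ratio of EIF3E to EIF3A was 1.202, -0.20 and 0.50 in Evs-ABPC, 1.33, 0.73 and 1.05 in Evs-FBMSC and 1.05, 1.61 and 1.31 in PBS libraries (exact permutation p = 0.150, adjusted p = 0.600). With no pseudocount the exact permutation p was 0.0750 (adjusted p = 0.600). Both ratios had 1 outlying Evs-ABPC library, replicate 2, where EIF4E and EIF3E were low. The pairs with the smallest p, EIF1AX with EIF1AY (exact permutation p = 0.0107, adjusted p = 0.214) and EIF5A with EIF5A2 (p = 0.0214 by the exact permutation test, adjusted p = 0.214), have a partner at or near 0. Their ratio with a pseudocount of 1 therefore follows the listed level of EIF1AX, the X-linked EIF1A gene, and of EIF5A, and is not free of the globin share. The helicase pair EIF4A1 and EIF4A2 averaged -0.47 ± 0.40 in Evs-ABPC, -0.41 ± 0.17 in Evs-FBMSC and -0.29 ± 0.23 in PBS libraries (SD, n = 3 each; exact permutation p = 0.696, adjusted p = 0.964).

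**Figure D5:**
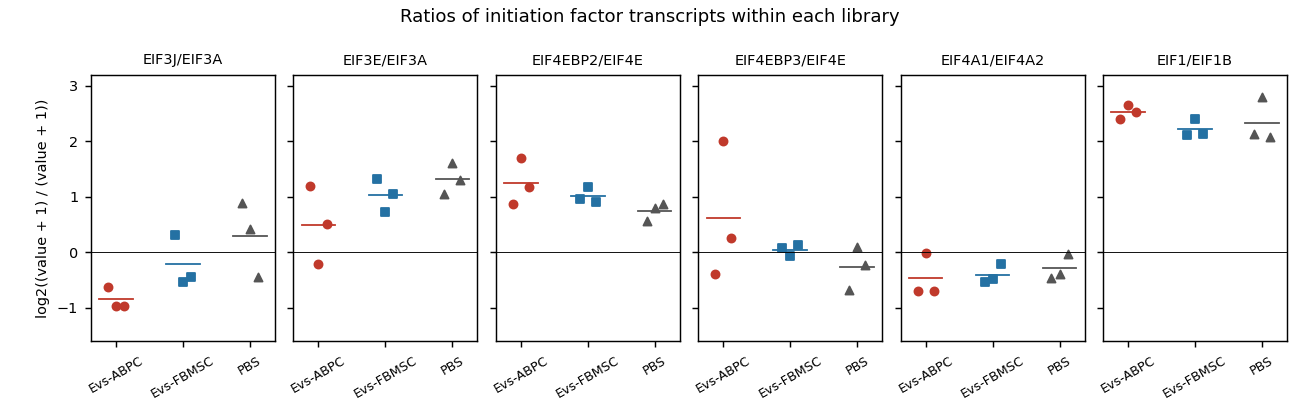
Log2 ratio of 2 initiation factor transcripts, each with 1 added, within each library for 6 of the 20 pairs, 1 point per library with a line at the group mean. The EIF3J to EIF3A ratio is lowest in the 3 Evs-ABPC libraries, and in each of the other 5 pairs the Evs-ABPC and PBS libraries overlap.

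After scaling, the highest library stood above the lowest by a median factor of 1.69 over the 45 genes, beside 2.42 over the 10175 tested genes above 0 in every library. Among genes at or above the level of the median initiation factor gene the factors were 1.54 (23 genes) and 2.40 (1944 genes). As deposited the factor was 7.87 over the 45 genes and 8.96 over the 10175, and 7.30 (23 genes) and 7.29 (1944 genes) among those at or above that level. After scaling the narrowest initiation factor genes were EIF4A1 at 1.18, EIF4G2 at 1.28, EIF4E2, a cap-binding repressor, at 1.32 and EIF4H at 1.36. The widest were EIF3J at 4.19, EIF2B3 at 4.04, EIF3E at 3.64, EIF4EBP3 at 3.37 and EIF4E at 3.29.

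Evs-ABPC replicate 2 had 3 of the 45 genes (6.67%), EIF3E, EIF3M and EIF4E, at least 2-fold below both other Evs-ABPC libraries on the scale of the scaled value plus 1, where 1.68% of all genes were. No other library had an initiation factor gene set apart in that way. The same library had the highest scaled platelet marker sum of the 9, at 423 beside 258 and 62.3 in the other Evs-ABPC libraries, and the lowest globin share, at 70.9% beside 82.4% and 75.1%. The part of platelets or globin in the 3 low values was not tested.

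Regulators of initiation and other translation genes were counted in 8 lists. As deposited in Evs-ABPC against PBS, 4 of 4 EIF2 kinases, 13 of 13 tested EIF2 phosphatase and integrated stress response genes, 13 of 13 mTOR and MNK signalling genes, 12 of 12 accessory initiation factors, 6 of 6 hypusination genes and 12 of 12 elongation and termination factors rose by limma, beside 90.9% of all genes. Of the poly(A)-binding protein partners 8 of 9 rose. The exception was PAIP2, an inhibitor of poly(A)-binding protein, at 0.67 (SE 0.42, limma adjusted p = 0.129). Of 79 tested ribosomal protein genes 55 rose. In the other two comparisons, and after scaling in all 3, none of these lists had a called gene by limma.

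The regulators named here were among those with the smallest p of their lists on the scaled scale, and none passed the threshold. PAIP2 had scaled values of 39.2, 17.4 and 22.8 in Evs-ABPC, 67.2, 38.0 and 49.9 in Evs-FBMSC and 75.6, 72.0 and 47.4 in PBS libraries, with every Evs-ABPC library below every PBS library. Its log2 fold change in Evs-ABPC against PBS was -1.31 (SE 0.35, unadjusted p = 0.00402, limma adjusted p = 0.218). PPP1CB, a catalytic subunit of protein phosphatase 1, had 12.4, 7.97 and 9.46 in Evs-ABPC, 14.2, 13.6 and 14.95 in Evs-FBMSC and 19.8, 17.97 and 13.1 in PBS libraries, at -0.72 (SE 0.22, limma adjusted p = 0.275). PPP1R15A, which directs that phosphatase to EIF2, had -0.66 (SE 0.26, limma adjusted p = 0.428). MTOR, the kinase that phosphorylates the EIF4E-binding proteins, had 2.05, 2.37 and 2.91 in Evs-ABPC, 1.95, 2.43 and 2.21 in Evs-FBMSC and 1.497, 1.38 and 1.69 in PBS libraries, at 0.44 (SE 0.15, limma adjusted p = 0.341), with all 6 vesicle libraries above the PBS libraries.

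Among the EIF2 kinases, EIF2AK1, the heme-regulated kinase, had scaled values of 4.73, 3.50 and 5.99 in Evs-ABPC, 3.47, 5.22 and 4.67 in Evs-FBMSC and 6.82, 9.24 and 5.41 in PBS libraries. The log2 fold changes were -0.50 (SE 0.24, limma adjusted p = 0.513) in Evs-ABPC and -0.57 (SE 0.24, limma adjusted p = 0.998) in Evs-FBMSC against PBS. EIF2AK2, the kinase activated by double-stranded RNA, had 2.94, 2.60 and 2.26 in Evs-ABPC, 5.13, 2.9997 and 3.74 in Evs-FBMSC and 3.17, 1.34 and 1.86 in PBS libraries, at 0.69 (SE 0.24, limma adjusted p = 0.957) in Evs-FBMSC against PBS. ATF4, the transcription factor made when EIF2 is phosphorylated, had -0.29 (SE 0.23, limma adjusted p = 0.999) in that comparison. For the hypusination genes the lowest was SAT1, a polyamine-degrading enzyme, at -0.98 (SE 0.51, limma adjusted p = 0.564) in Evs-ABPC against PBS. In the same comparison DHPS, which carries out the first step of making hypusine on EIF5A, had 0.22 (SE 0.21, limma adjusted p = 0.766). The ribosomal protein genes had a median of -0.72 in Evs-ABPC against PBS after scaling, beside a median of -0.05 over the initiation factor genes. At an unadjusted p under 0.05 by limma, 31 of 79 ribosomal protein genes were lower, beside 7.12% of all genes, and 0 were called.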

How the data were processed

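Whole-blood RNA of 9 animals (3 per group) was analysed. The authors' deposited table holds log2 values: a per-million value, normalised for transcript length as in TPM, with 0.5 added before the log2, as read from the values themselves (lowest -1, each library summing to 999999 or 1000000). The genome build was Mmul_10, per the submitters' processing notes. Libraries were made with a NEBNext Ultra kit, per the labels' protocols. Which aligner and counting program were used, and whether strand was read, the sources used here do not say. All value columns were mapped to samples by their labels. Values were returned to the per-million scale. Whole reads were recovered by seeking 1 divisor per gene that made its values whole (tolerance 0.001), which succeeded for 21427 of 21551 genes above 0 in at least 2 libraries (99.4%) and 46 of 47 initiation factor genes. The genes left unresolved are mostly the most abundant, so the recovered totals leave out globins. Recovered reads are reconstructed, and cover counting error only.

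The main test was limma 3.58.1 in R 4.3.3 with a trend, on log2(value + 1), for the 10596 genes that reached a per-million value of 1 in 3 samples or more, with all 9 samples in 1 fit, group as the only term and Benjamini-Hochberg adjustment over all genes tested (threshold 0.05). Fold changes on log2(value + 1) understate changes of low genes. The main test was run as deposited and after median-ratio scaling, and checked on simulated data. That check planted only changes larger than any scaled difference named here, with no shift in globin share. It therefore does not show whether differences of the size named here would be detected. The 20 within-library ratios used exact permutation tests (Python 3.11.15). Limma-voom on recovered reads and ratios with no pseudocount were added after the data were seen. The members, gene lists, roles and pairs were chosen with earlier results of these data known. Genes named with every value are the 6 most abundant, per comparison the 4 highest and 4 lowest after scaling, and the 5 pairs with the smallest p, with up to 2 regulators per list and direction. EIF2B2, EIF2B3, EIF3M, EIF2A, EIF5, EIF5B, EIF4A1, EIF4A2, EIF4A3, EIF4B, EIF4E2, EIF4H and the plotted pairs EIF1 with EIF1B, EIF4A1 with EIF4A2 and EIF4EBP3 with EIF4E were named after their values were seen. Replicate numbers were not used to pair the samples in the main fit. Same-numbered samples correlated above 0.1 in 2 of 9 pairs as deposited and 4 of 9 after scaling, with a highest r of 0.28. Differently numbered samples reached higher values, with an r of 0.35 after scaling between Evs-ABPC replicate 2 and Evs-FBMSC replicate 1. These correlations cannot settle whether same-numbered samples shared a batch or order, which was not tested. Sequences and coordinates were not used here.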

Additional observations from a re-analysis of the deposited data

How the results depend on the processing

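On the deposited scale the count of initiation factor genes past the threshold in Evs-ABPC against PBS ran from 43 to 45 as libraries were left out in turn, beside 82.5% to 92.0% of all genes. In Evs-FBMSC against PBS it was 0, but 7 of 37 with genes of at least 1 in every sample (33.1% of all genes), 4 of 45 with only the 2 groups in the fit (9.95%), and 0 to 30 as libraries were left out (0.123% to 43.3%). In Evs-ABPC against Evs-FBMSC it was 0, but 1 of 37 with genes of at least 1 in every sample (8.01%) and 0 to 22 as libraries were left out (0.416% to 45.6%). With the replicate number as a block it was 13 of 45, beside 32.0% of all genes. Same-numbered libraries share no animal, and whether they shared a batch or order was not tested. The cause of these shifts was not tested. Over the whole table after scaling, Evs-ABPC against PBS without PBS replicate 3 had 9 genes called higher (0.0855%) and 163 lower of 10524. Every other scaled run called at most 4 genes higher and at most 2 lower in any comparison. After scaling, 0 initiation factor genes were called in all 3 comparisons under every alternative run. Taking out the erythroid and globin genes instead moved the median of all genes to 0.73 in Evs-ABPC against PBS, 0.41 in Evs-FBMSC against PBS and 0.32 in Evs-ABPC against Evs-FBMSC, with initiation factor medians of 0.69, 0.39 and 0.34 in these comparisons. Size factors from genes of at least 1 in every sample moved the all-gene median in Evs-ABPC against PBS to 0.12. Without Evs-ABPC replicate 2 the scaled Evs-ABPC against Evs-FBMSC values changed sign for EIF3E (0.0058, from a low of -0.79 without another library) and EIF4EBP3 (-0.029, up to a high of 0.44). With a replicate left out, a group keeps 2 libraries. No ratio pair passed with any library left out or without a pseudocount. Depth limits genes with per-million values near 1 in the PBS libraries.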
